A study of Mus musculus with 16 samples.

Results

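Mitochondrial complex I, the NADH:ubiquinone oxidoreductase, was followed through the nuclear genes of its subunits. Genes were taken from the deposited table where the symbol began with Nduf, then ab, a, b, c, s or v, and then a number, which leaves out the assembly factors. This gave 46 genes of the 41079 in the table. Of these, 37 encode subunits placed in current structures of the complex, 2 (Ndufa4 and Ndufa4l2) are related genes outside those structures, and 7 are paralogs or pseudogenes. The filter on low counts kept 44 of the 46, among them all 37 subunits. Ndufb11b had 0 reads in every library, and Ndufa11b had at most 8 reads in any library.

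Liver RNA came from 4 male CRE- mice, 4 male LKO mice, 4 female CRE- mice and 4 female LKO mice, all 20 to 22 months old and on the C57BL/6J background. Both genotypes carried a Gcgr allele, the glucagon receptor gene, with loxP sites around several exons. LKO mice also carried Albumin-Cre, whose promoter is active in hepatocytes, and CRE- mice did not. The receptor gene was thus deleted from development onwards, not in adult life alone. Total counts were between 33268424 and 56488920 reads per mouse, and every one of the 37 subunits had at least 283 reads in every library. Levels are given as CPM, the reads of a gene relative to the library total after TMM scaling, and differences as log2 fold changes of LKO against CRE- mice of the same sex. A gene passed the test at an adjusted p under 0.05.

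Complex I is the first and largest enzyme of the respiratory chain. It takes electrons from NADH at the tip of an arm that reaches into the mitochondrial matrix, passes them to ubiquinone at the base of that arm, and pumps protons through an arm in the inner membrane. The matrix arm consists of the N module, which oxidizes NADH, and the Q module, which reduces ubiquinone. The membrane arm has proximal and distal parts, and its central pumping subunits are encoded by mitochondrial DNA. Hepatocytes hold many mitochondria and use the chain to reoxidize the NADH of fatty acid breakdown and to supply ATP for glucose production.

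The targeted gene was examined first. Gcgr, on chromosome 11 of GRCm39 at chr11:120420011-120429815, was at 162, 208, 201 and 180.0 CPM in female CRE- replicates 1 to 4 and at 48.8, 132, 119 and 93.6 CPM in female LKO replicates 1 to 4. All female LKO values lay below all female CRE- values. In males it was at 190.4, 193, 127 and 189.6 CPM in CRE- replicates 1 to 4 and at 117, 136, 129.9 and 160.3 CPM in LKO replicates 1 to 4. The male groups overlapped, through CRE- replicate 3. Reads were counted over all exons of Gcgr, also those that Cre leaves in place, so the level does not measure the deletion alone.

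The libraries differed in how they covered short genes, and 2 of them stood apart. The share of reads on genes shorter than 1000 bases was 7.24, 7.15, 4.53 and 8.66% in male CRE- replicates 1 to 4 and 9.18, 8.65, 7.96 and 9.61% in male LKO replicates 1 to 4. It was 6.99, 7.96, 8.09 and 8.88% in female CRE- replicates 1 to 4 and 4.79, 8.14, 8.66 and 8.35% in female LKO replicates 1 to 4. Male CRE- replicate 3 and female LKO replicate 1 were thus the lowest of the 16. The complex I genes are short, with a median length of 772.5 bases against 3481 bases over all 16742 genes tested. The main results are therefore given with and without these 2 libraries, an alternative chosen after seeing the data. Values with no setting named are from all 16 libraries.

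All complex I genes together took 0.305, 0.402, 0.394 and 0.403% of the reads in female CRE- replicates 1 to 4 and 0.179, 0.411, 0.394 and 0.318% in female LKO replicates 1 to 4. In males they took 0.322, 0.351, 0.183 and 0.363% in CRE- replicates 1 to 4 and 0.394, 0.400, 0.344 and 0.430% in LKO replicates 1 to 4. Female LKO replicate 1 and male CRE- replicate 3 were the lowest, and LKO and CRE- values overlapped in both sexes. Averaged over the 44 genes tested, the mean log2 CPM was 5.17, 5.68, 5.71 and 5.90 in female CRE- replicates 1 to 4 and 4.03, 5.59, 5.42 and 5.18 in female LKO replicates 1 to 4. It was 5.14, 5.41, 4.41 and 5.43 in male CRE- replicates 1 to 4 and 5.27, 5.56, 5.18 and 5.67 in male LKO replicates 1 to 4. The group means were 5.62 ± 0.31 in female CRE-, 5.06 ± 0.71 in female LKO, 5.10 ± 0.48 in male CRE- and 5.42 ± 0.23 in male LKO mice (SD, n = 4 each). Female LKO replicate 1 was the lowest of the 16 libraries for 31 of the 37 subunits. As whole liver was sequenced, fewer hepatocytes and less RNA per hepatocyte cannot be told apart.

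Other genes of like length moved in the same libraries. The median shift of the complex I genes from their mean over the 16 libraries was -1.26 in log2 in female LKO replicate 1, where the 1601 other genes between 529 and 1281 bases long, the middle range of the complex I genes, had a median shift of -0.67. In male CRE- replicate 3 the shifts were -0.98 for complex I and -0.89 for the other genes of that range. In the male library the shifts lay close together, and in the female library complex I lay lower than the other short genes. Fits with the trend of each library with length removed are given below, and the cause of the trend was not tested.

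**Figure D1:**
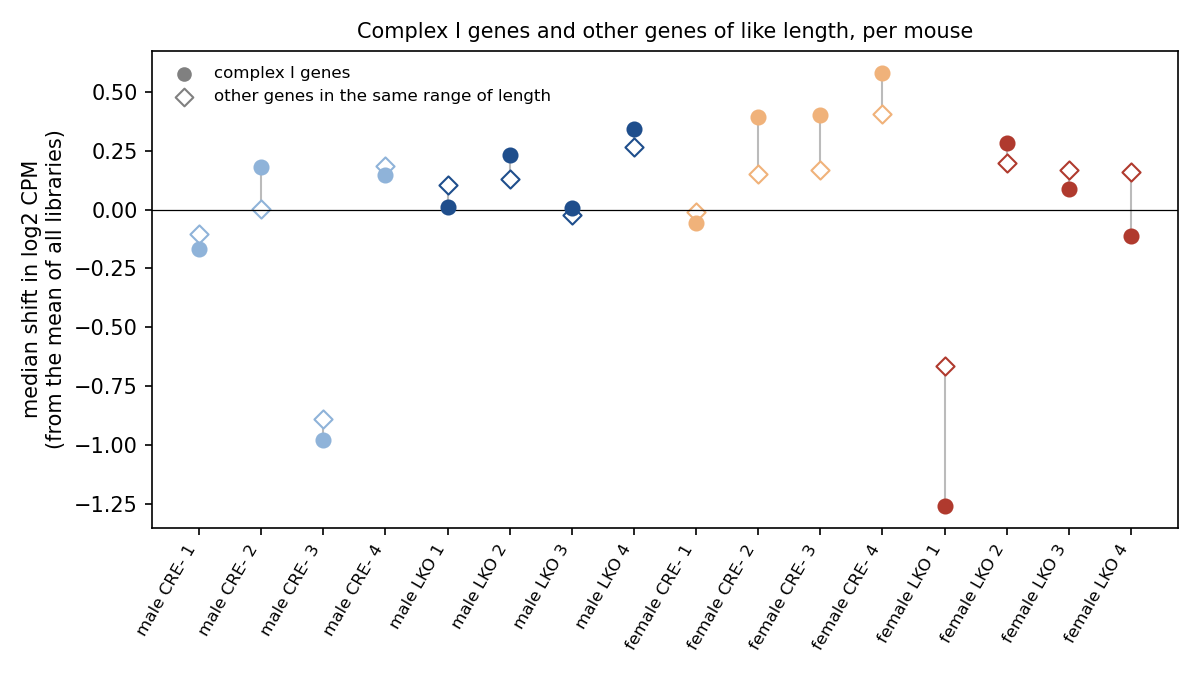
Median shift in log2 CPM, from the mean over the 16 libraries, of the 44 complex I genes (filled circles) and of the 1601 other genes in their middle range of length (open diamonds), one column per mouse. Female LKO replicate 1, at -1.26, and male CRE- replicate 3, at -0.98, lie below the other 14 libraries.

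Complex I transcripts were at lower fitted levels in female LKO than in female CRE- mice, without any single gene passing the test. By the quasi-likelihood test of edgeR, adjusted after Benjamini-Hochberg, 0 of the 44 genes passed, where 710 of all genes tested (4.24%) did. DESeq2 passed 3 of the 44, against 10.8% of all genes, and limma-voom passed 0, against 11.8%. The edgeR share over all genes itself depended on the mice and on the fit. It ran from 0.509% without female CRE- replicate 2 to 7.66% without female LKO replicate 2, and was 0.644% without female CRE- replicate 4, 0.713% without female CRE- replicate 3 and 0.756% with each sex fitted alone. At an unadjusted edgeR p under 0.05 there were 11 complex I genes, all lower, where 9.14% of all genes were lower at that p. The log2 fold change was below 0 in 42 of the 44, with a median of -0.46, where 46.9% of all genes were below 0 and their median was 0.04. By limma-voom the median was -0.28, against -0.02 over all genes, and 40 of the 44 were below 0. By edgeR the value was below 0 for all 37 subunits, between -0.78 for Ndufa13 and -0.07 for Ndufa8. LKO and CRE- values overlapped for each of the 44, whereas in 6.42% of all genes the female LKO values lay wholly below the CRE- values.

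The female median was -0.18 without female LKO replicate 1. Without both low libraries it was also -0.18, 39 of the 44 were below 0, and 0 of the 44 passed edgeR's test (2.13% of all genes did), with 5 lower (8.6% of all genes were) and 1 higher (10.1% were) at an unadjusted p under 0.05. With female LKO replicate 2 left out, 3 genes passed (Ndufs6b, Ndufa13 and Ndufb8), against 7.66% of all genes, and these are those DESeq2 passed with all libraries. After the trend of each library with gene length was removed, the median was -0.42 and 6 genes passed, against 6.71% of all genes. These were Ndufb1, Ndufs6b, Ndufb7, Ndufb3, Ndufs8 and Ndufb10. At an unadjusted p under 0.05 there were then 24, all lower, where 10.8% of all genes were lower. In females the log2 fold change was then -0.63 for Ndufa13, -0.72 for Ndufb8, -0.52 for Ndufs8 and -0.45 for Ndufs1, against -0.78, -0.77, -0.68 and -0.44 before. With the trend removed and both low libraries left out, the median was -0.27 and 0 passed edgeR's test (against 2.7% of all genes), with 15 lower (10% of all genes were) and 1 higher (10.3% were) at an unadjusted p under 0.05.

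In male LKO mice the fitted levels lay on the other side. By the quasi-likelihood test of edgeR, adjusted after Benjamini-Hochberg, 0 of the 44 genes passed, where 76 of all genes (0.454%) did, and 0 had an unadjusted p under 0.05, where 9.53% of all genes did. DESeq2 and limma-voom also passed 0 (2.02% and 0.884% of all genes), with 1 and 3 at an unadjusted p under 0.05 (11.2% and 13.5% of all genes). The log2 fold change was above 0 in 41 of the 44, with a median of 0.28, where 49.1% of all genes were above 0 and their median was -0.01. Every male LKO mouse was above every male CRE- mouse for 2 of the 44, Ndufb11 and Ndufb4c, where 3.57% of all genes had that pattern. Leaving out male CRE- replicate 3 gave a male median of 0.09, and leaving out male LKO replicate 4 one of 0.18. Without both low libraries it was 0.10 with 35 of the 44 above 0. After the length trend was removed it was 0.06 with 28 above 0, and with both it was 0.03 with 26 above 0.

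Whether the genotype difference itself differed between females and males was tested with the interaction term. By the quasi-likelihood test of edgeR, adjusted after Benjamini-Hochberg, 0 of the 44 genes passed, as did 0% of all genes. DESeq2 passed 0 of the 44 and 2.22% of all genes, and limma-voom passed 0 of the 44 and 0.173%. At an unadjusted edgeR p under 0.05 there were 10 complex I genes, all with a lower female than male fold change, where 6.68% of all genes were lower at that p. By limma-voom with all libraries there were 21, all lower (10.8% of all genes). By edgeR without both low libraries there were 3 lower and 1 higher (4.26% and 6.6% of all genes). With all libraries, the log2 difference by edgeR was below 0 in 43 of the 44 and in 47.7% of all genes. Its median over complex I was -0.77, against 0.04 over all genes. The median was -0.31 without both low libraries and -0.47 with the length trend removed. The CRE- mice of the sexes lay at different fitted levels, with a median log2 fold change of female against male CRE- of 0.49 over the complex I genes, 43 of 44 above 0, and of -0.01 over all genes, 49.4% above 0. By the quasi-likelihood test of edgeR, adjusted after Benjamini-Hochberg, 0 of the 44 passed there, where 0.92% of all genes did, and 7 were higher in females at an unadjusted p under 0.05, as were 6.3% of all genes. DESeq2 and limma-voom passed 0 of the 44 (3.04% and 1.97% of all genes). Without male CRE- replicate 3 or with both low libraries left out this median was 0.29, with the length trend removed 0.23, and with both 0.19. The female, male and sex comparisons share the CRE- mice, so their values are not independent.

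Short genes as a whole moved in these comparisons. In females the median log2 fold change of the 1601 other genes in the middle range of length of complex I was -0.15, against -0.46 for complex I. For the 308 of these genes with a mean level of at least 48.2 CPM, the lower quartile of complex I, it was -0.29. In males the 1601 genes had a median of 0.27 and the 308 genes one of 0.30, against 0.28 for complex I. With all libraries, the male value of complex I was thus near that of other short genes, and the female value was lower. These medians of the short genes are not given without both low libraries, where the female median of complex I was -0.18. In female LKO replicate 1 alone, the 308 genes had a median shift of -0.79, against -1.26 for complex I. Over all genes, set out in 10 groups by length, the median went from -0.10 in the group of the shortest genes to 0.14 in that of the longest in females, and from 0.28 to -0.23 in males. For the interaction the 1601 genes had a median of -0.45 and the 308 genes one of -0.65, against -0.77 for complex I.

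**Figure D2:**
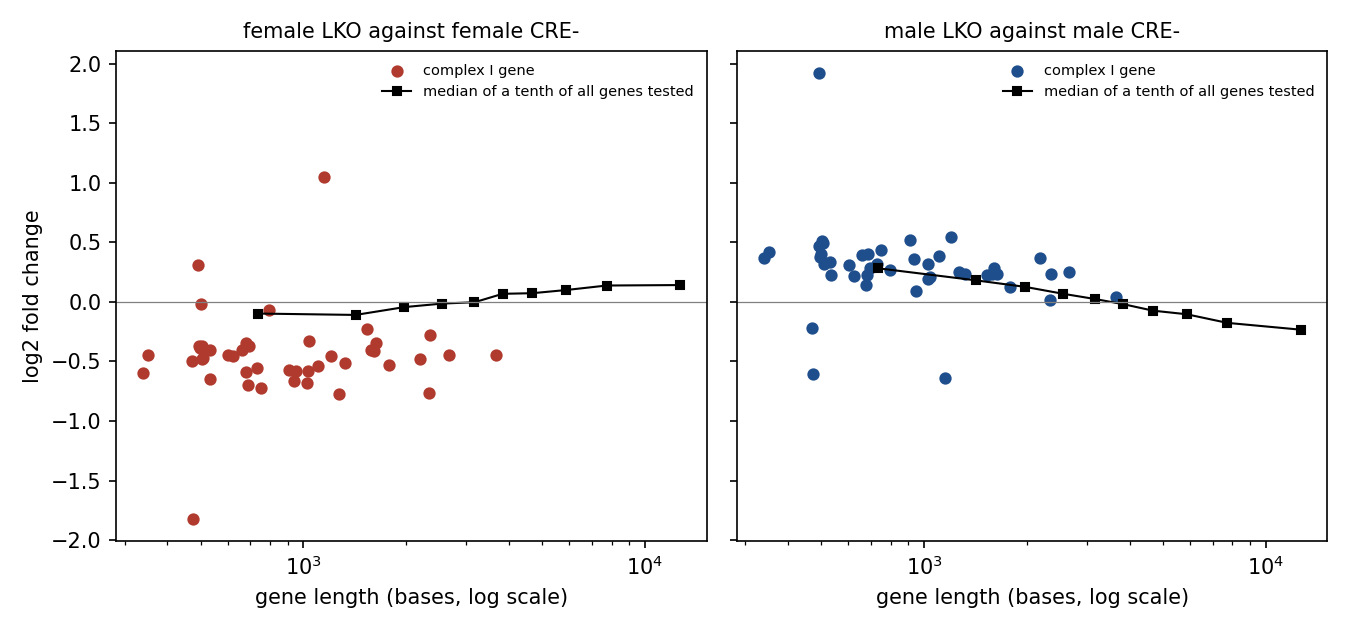
Log2 fold change of LKO against CRE- mice by gene length in bases (log axis), in females (left) and males (right). Circles are the 44 complex I genes and squares are medians of all genes tested in 10 groups by length. From the group of the shortest genes to that of the longest, the median went from -0.10 to 0.14 in females. In males it went from 0.28 to -0.23. The lowest female median, -0.11, was that of the genes of 1116 to 1704 bases.

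Within the N module all 10 genes had a female log2 fold change below 0 (median -0.41) and a male one above 0 (median 0.26). Ndufv1, the flavoprotein that binds NADH, was at 138, 189, 182 and 211 CPM in female CRE- replicates 1 to 4 and at 117, 171, 142 and 111 CPM in female LKO replicates 1 to 4. Female LKO replicates 1 and 4 were below all controls, and replicates 2 and 3 were within their range. Its female log2 fold change was -0.41 (SE 0.20 and 0.244 as the Benjamini-Hochberg adjusted p of edgeR's quasi-likelihood test), and -0.33 without both low libraries. Ndufv2, an iron-sulfur subunit beside it, was at 98.5, 144, 141 and 158 CPM in female CRE- replicates 1 to 4 and at 70.8, 132, 120.3 and 103 CPM in female LKO replicates 1 to 4. Female LKO replicate 1 alone was below all controls. Ndufv2 shares 453 exon bases with Ankrd12 on the same strand, where reads may not have been assigned. Ndufs1, which carries further iron-sulfur clusters on the way to ubiquinone, was at 100.3, 136, 138 and 102 CPM in female CRE- replicates 1 to 4 and at 63.3, 121, 95.1 and 70.7 CPM in female LKO replicates 1 to 4. Here 3 of the 4 LKO mice were below all controls, and replicate 2 was within the control range. The female log2 fold change of Ndufs1 was -0.44 (SE 0.20 and 0.222 as the Benjamini-Hochberg adjusted p of edgeR's quasi-likelihood test), and -0.29 without both low libraries. In males Ndufs1 was at 98.8, 135, 99.7 and 89.9 CPM in CRE- replicates 1 to 4 and at 109, 118, 104 and 102 CPM in LKO replicates 1 to 4, with all LKO values inside the control range. Ndufs1, with 3657 bases, is the longest of the complex I genes, and in male CRE- replicate 3 it was not low.

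Ndufa6, an accessory subunit of the matrix arm, had one of the 3 smallest male p-values. It was at 131, 151, 69.0 and 166 CPM in male CRE- replicates 1 to 4 and at 174, 200.2, 156 and 209 CPM in male LKO replicates 1 to 4. Male LKO replicate 3 lay between CRE- replicates 2 and 4, and the other LKO mice were above all controls. The male log2 fold change of Ndufa6 was 0.51 (SE 0.30 and 0.615 as the Benjamini-Hochberg adjusted p of edgeR's quasi-likelihood test), and 0.30 without both low libraries. With the length trend removed it was 0.21.

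Among the 6 genes of the Q module the median log2 fold change was -0.53 in females and 0.23 in males. Ndufs7, which carries the last iron-sulfur cluster before ubiquinone, was at 65.1, 81.8, 86.0 and 98.7 CPM in female CRE- replicates 1 to 4 and at 24.4, 82.7, 67.1 and 54.3 CPM in female LKO replicates 1 to 4. LKO replicates 1 and 4 of Ndufs7 were below all controls, and replicates 2 and 3 were within their range. Ndufs3, a core subunit of this module without a cluster, was at 80.4, 112, 104 and 131 CPM in female CRE- replicates 1 to 4 and at 42.0, 98.3, 77.9 and 67.2 CPM in female LKO replicates 1 to 4. All LKO mice but replicate 2 were below the controls. Its female log2 fold change was -0.58 (SE 0.24 and 0.166 as the Benjamini-Hochberg adjusted p of edgeR's quasi-likelihood test), and -0.38 without both low libraries.

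Ndufs8, on chromosome 19 at chr19:3958863-3962774, carries iron-sulfur clusters on the path to ubiquinone. It was at 70.7, 88.1, 86.4 and 121 CPM in female CRE- replicates 1 to 4 and at 32.4, 76.1, 67.5 and 53.2 CPM in female LKO replicates 1 to 4. LKO replicate 2 was above CRE- replicate 1, and the other 3 LKO mice were below all controls. In males it was at 58.5, 71.3, 32.7 and 74.2 CPM in CRE- replicates 1 to 4 and at 52.1, 72.0, 66.3 and 79.4 CPM in LKO replicates 1 to 4, with overlap of the groups and CRE- replicate 3 lowest. The female log2 fold change of Ndufs8 was -0.68 (SE 0.28 and 0.163 as the Benjamini-Hochberg adjusted p of edgeR's quasi-likelihood test), and -0.46 without both low libraries. Ndufa9, an accessory subunit at the joint of the arms, was at 126, 161, 152 and 179 CPM in female CRE- replicates 1 to 4 and at 86.5, 141, 123 and 82.9 CPM in female LKO replicates 1 to 4. LKO replicate 2 of Ndufa9 was above CRE- replicate 1, and the other 3 LKO mice were below all controls. The female log2 fold change of Ndufa9 was -0.51 (SE 0.21), and the difference between the sexes was -0.75 (SE 0.30 and 0.256 as the Benjamini-Hochberg adjusted p of edgeR's quasi-likelihood test). Without both low libraries these were -0.40 and -0.53, and with the length trend removed -0.36 and -0.37.

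For the 9 genes of the proximal membrane arm the median was -0.44 in females and 0.27 in males, in log2 as above. Ndufa13, also known as GRIM-19, lies on chromosome 8 at chr8:70346813-70355208 and had the smallest female p of the subunits. It was at 106, 151, 115 and 208 CPM in female CRE- replicates 1 to 4 and at 54.0, 109, 105 and 69.4 CPM in female LKO replicates 1 to 4. CRE- replicate 4 was the highest of the 16 mice, and LKO replicate 2 was above CRE- replicate 1, so the groups overlapped. In males Ndufa13 was at 103, 120.0, 82.3 and 98.3 CPM in CRE- replicates 1 to 4 and at 98.8, 127, 114 and 142 CPM in LKO replicates 1 to 4, and the groups overlapped. The female log2 fold change of Ndufa13 was -0.78 (SE 0.25 and 0.0812 as the Benjamini-Hochberg adjusted p of edgeR's quasi-likelihood test), and -0.59 without both low libraries. The difference between the sexes was -1.03 (SE 0.35 and 0.218 as the Benjamini-Hochberg adjusted p of edgeR's quasi-likelihood test), the smallest interaction p of the complex I genes, and -0.75 without both low libraries. With the length trend removed this difference was -0.63.

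The distal membrane arm had the lowest female median of the modules, -0.60 over 11 genes, and the highest male median, 0.37. Of these 11 genes 4 had an unadjusted female p under 0.05, all lower, where 9.14% of all genes were lower at that p and 21.4% lower or higher. At that p 3 of 6 genes were lower in the Q module, 2 of 9 in the proximal arm and 1 of 10 in the N module. Without both low libraries the female median was -0.34, beside -0.15 for the N module, -0.32 for the Q module and -0.13 for the proximal arm. Differences between the modules were not tested. Ndufb8, an accessory subunit on chromosome 19 at chr19:44537010-44543881, was at 98.2, 149, 148 and 189 CPM in female CRE- replicates 1 to 4 and at 51.7, 114, 99.8 and 77.5 CPM in female LKO replicates 1 to 4. CRE- replicate 1 was below LKO replicates 2 and 3, and the other 3 controls were above all LKO mice. In males it was at 89.4, 131, 71.6 and 123 CPM in CRE- replicates 1 to 4 and at 89.5, 109.6, 97.9 and 121 CPM in LKO replicates 1 to 4, with all LKO values inside the control range. The female log2 fold change of Ndufb8 was -0.77 (SE 0.26 and 0.0938 as the Benjamini-Hochberg adjusted p of edgeR's quasi-likelihood test), and -0.57 without both low libraries.

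Ndufb11, encoded on the X chromosome at chrX:20481565-20483858, was at 89.7, 129, 59.7 and 132 CPM in male CRE- replicates 1 to 4 and at 135, 155, 133 and 166 CPM in male LKO replicates 1 to 4. Each male LKO mouse was above each male CRE- mouse, narrowly so for LKO replicate 3 against CRE- replicate 4. In females it was at 127, 173, 187 and 213 CPM in CRE- replicates 1 to 4 and at 54.9, 161, 131 and 122 CPM in LKO replicates 1 to 4, where the groups overlapped. LKO exceeded CRE- in males by a fitted log2 value of 0.52 (SE 0.29 and 0.600 as the Benjamini-Hochberg adjusted p of edgeR's quasi-likelihood test), and 0.32 without both low libraries. The difference between the sexes was -1.10 (SE 0.41 and 0.241 as the Benjamini-Hochberg adjusted p of edgeR's quasi-likelihood test), and -0.64 without both low libraries. With the length trend removed the male value was 0.26 and the difference between the sexes -0.70.

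**Figure D3:**
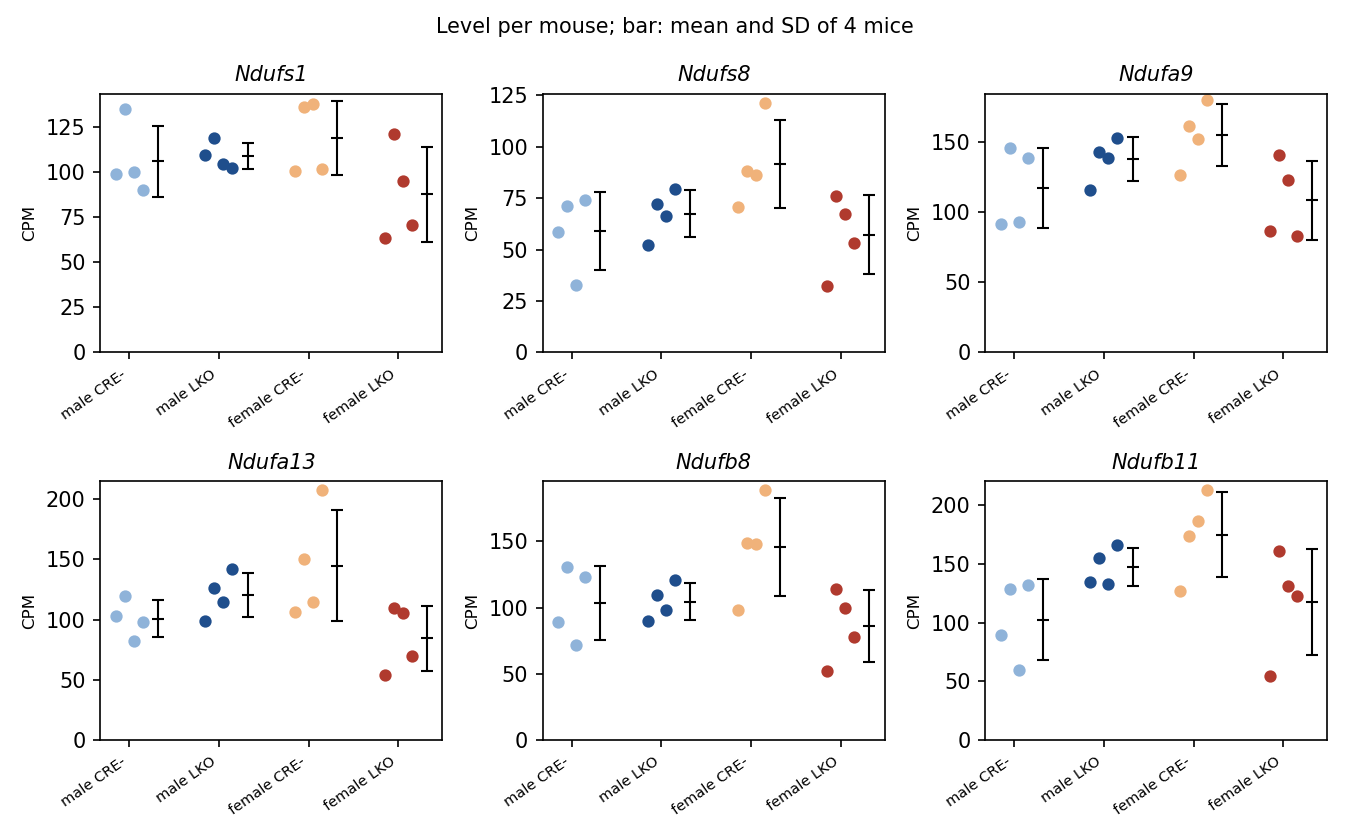
CPM in each mouse for Ndufs1, Ndufs8, Ndufa9, Ndufa13, Ndufb8 and Ndufb11, on linear axes from 0, with the mean and SD of the 4 mice of each group as bars. LKO and CRE- points overlap in each panel in females, and in males in all panels but Ndufb11.

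Levels differed widely among the genes when set per length. In RPKM, CPM per 1000 bases of gene length averaged over the 16 mice, the 37 subunits ran from 19.1 for Ndufa11 to 316 for Ndufa6, with a median of 90.7. Ndufa4, a small protein now assigned to complex IV, was above them at 523 RPKM. Ndufa4 was at 222, 319, 335 and 314 CPM in female CRE- replicates 1 to 4 and at 104, 296, 264 and 246 CPM in female LKO replicates 1 to 4, so LKO replicate 1 was lowest and the groups overlapped. Its log2 fold change was -0.39 (SE 0.29) in females and 0.38 (SE 0.29) in males, and -0.13 and 0.18 without both low libraries. With the length trend removed the values of Ndufa4 were -0.33 and 0.06. Its paralog Ndufa4l2, at 2.01 RPKM, was at 1.77, 2.10, 2.44 and 1.76 CPM in female CRE- replicates 1 to 4 and at 0.352, 2.02, 1.28 and 13.1 CPM in female LKO replicates 1 to 4. Female LKO replicate 4 was far above the other 3, of which replicates 1 and 3 were below all controls. With all libraries Ndufa4l2 was the 1 gene of the 44 with an interaction above 0, and without female LKO replicate 4 the interaction was below 0 for all 44. With all libraries its log2 fold changes were 1.05 in females (SE 0.72) and -0.64 in males (SE 0.73), neither of which passed edgeR's test. Ndufa4l2 falls outside the rule for named genes and was chosen after its values were seen.

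The smallest female p of all 44 genes belonged to Ndufs6b, a processed copy of Ndufs6 that is annotated as a transcribed pseudogene on chromosome 7. It was at 0.333, 0.895, 1.03 and 0.855 CPM in female CRE- replicates 1 to 4 and at 0.101, 0.449, 0.256 and 0.0579 CPM in female LKO replicates 1 to 4. Over all 16 libraries, males included, it had from 2 to 66 reads. Female LKO replicates 1, 3 and 4 were below all controls and LKO replicate 2 was above CRE- replicate 1. The female log2 fold change was -1.82 (SE 0.57 and 0.0762 as the Benjamini-Hochberg adjusted p of edgeR's quasi-likelihood test), and -1.56 without both low libraries. Ndufs6 itself, a zinc-binding subunit of the N module with at least 1160 reads in every library, had a female log2 fold change of -0.56 (SE 0.30). The copy is shown beside its parent because reads could be assigned to either only where they differ. GENCODE's Ndufs6b transcript, on the minus strand of GRCm39 at chr7:80811145-80811492, matched the coding sequence of Ndufs6, on the minus strand at chr13:73464968-73476661, at 96.5% of 347 bases, and the 12 differing bases all lie in the first 300, in capitals here. The values of Ndufs6b are therefore uncertain.
Ndufs6 coding sequence: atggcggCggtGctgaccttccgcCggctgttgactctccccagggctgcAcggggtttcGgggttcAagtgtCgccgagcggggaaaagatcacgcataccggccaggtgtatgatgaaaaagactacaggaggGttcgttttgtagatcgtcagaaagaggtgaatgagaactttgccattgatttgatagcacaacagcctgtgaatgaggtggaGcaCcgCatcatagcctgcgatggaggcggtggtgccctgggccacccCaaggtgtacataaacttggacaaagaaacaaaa
Ndufs6b transcript: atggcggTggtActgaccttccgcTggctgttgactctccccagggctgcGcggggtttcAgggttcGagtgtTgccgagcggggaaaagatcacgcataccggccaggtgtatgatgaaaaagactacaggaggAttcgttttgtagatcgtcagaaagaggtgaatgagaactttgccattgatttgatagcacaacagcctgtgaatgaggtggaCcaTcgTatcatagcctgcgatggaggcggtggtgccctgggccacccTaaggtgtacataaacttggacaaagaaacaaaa

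Ndufb4c, another processed copy, had the smallest male p and the lowest level of the genes tested, 0.397 RPKM. It was at 0.122, 0, 0.0520 and 0.135 CPM in male CRE- replicates 1 to 4 and at 0.309, 0.375, 0.149 and 0.378 CPM in male LKO replicates 1 to 4. The male groups did not overlap, but no library held more than 20 reads of it. Its male log2 difference of 1.92 (SE 0.94 and 0.544 as the Benjamini-Hochberg adjusted p of edgeR's quasi-likelihood test) rests on those few reads.

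Promoter windows of 300 bases around the start of the gene were held by the RefSeq table of GRCm38.p6 for 35 of the 46 genes, in 37 windows. Motifs were searched on both strands. ATGGCGG, the core of the YY1 motif, was in windows of 8 of the 35 genes (22.9%) and of 4.69% of the 27025 genes in the table. GCATGCG, from the NRF1 motif, was in 3 of the 35 (8.57%) and in 4.01% of all. CCGGAAG, bound by ETS factors such as GABPA, was in 4 (11.4%) and in 9.93% of all, and TATAAA in 4 (11.4%) and in 15.7% of all. A match describes the letters only. Genes without a window in the table included Ndufa11b, Ndufa2, Ndufa4l2, Ndufab1-ps, Ndufb11b, Ndufb4c, Ndufb9, Ndufs1, Ndufs5-ps and Ndufs6b. The windows of Ndufs3, with CCGGAAG on both strands, and of Ndufa9, with ATGGCGG, are shown as examples among the genes described above, with the matches in capitals.
Ndufs3 promoter, GRCm38.p6, minus strand, chr2:90904672-90904971: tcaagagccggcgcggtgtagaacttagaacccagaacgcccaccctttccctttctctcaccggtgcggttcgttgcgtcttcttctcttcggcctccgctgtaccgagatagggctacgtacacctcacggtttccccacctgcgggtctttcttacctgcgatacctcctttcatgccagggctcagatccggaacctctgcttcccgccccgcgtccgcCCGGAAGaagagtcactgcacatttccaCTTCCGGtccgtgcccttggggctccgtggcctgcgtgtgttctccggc
Ndufa9 promoter, GRCm38.p6, minus strand, chr6:126849095-126849394: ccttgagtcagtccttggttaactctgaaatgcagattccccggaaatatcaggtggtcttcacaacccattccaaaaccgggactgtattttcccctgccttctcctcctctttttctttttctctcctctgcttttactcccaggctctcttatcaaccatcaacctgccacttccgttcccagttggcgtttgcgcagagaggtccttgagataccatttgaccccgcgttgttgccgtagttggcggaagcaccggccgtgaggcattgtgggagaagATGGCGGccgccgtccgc

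Assembly factors, which build the complex but are not part of it, were counted in the same way. Of 20 in the table, all tested, 1 passed in females (5%, where 4.24% of all genes did) by the quasi-likelihood test of edgeR, adjusted after Benjamini-Hochberg, and it was lower in LKO mice. In males 0 did (0.454% of all genes), with 1 lower at an unadjusted p under 0.05 (4.74% of all genes). DESeq2 and limma-voom each passed 4 of the 20 in females, against 10.8% and 11.8% of all genes, and 0 in males, against 2.02% and 0.884%. Acad9, an assembly factor related to the acyl-CoA dehydrogenases, was at 60.3, 77.1, 69.7 and 87.5 CPM in female CRE- replicates 1 to 4 and at 34.5, 44.2, 37.4 and 35.5 CPM in female LKO replicates 1 to 4. Each female LKO mouse was below each female CRE- mouse. Its female log2 fold change was -0.96 (SE 0.16 and 0.00646 as the Benjamini-Hochberg adjusted p of edgeR's quasi-likelihood test). With both low libraries left out it was -0.89 (0.0117 as the Benjamini-Hochberg adjusted p of edgeR's quasi-likelihood test). Acad9 passed with each of the 16 mice left out in turn, with log2 fold changes between -1.04 and -0.84. In males Acad9 was at 44.3, 57.5, 53.3 and 42.2 CPM in CRE- replicates 1 to 4 and at 36.1, 38.7, 32.5 and 39.8 CPM in LKO replicates 1 to 4, also without overlap. Its male log2 fold change was -0.42 (SE 0.15 and 0.348 as the Benjamini-Hochberg adjusted p of edgeR's quasi-likelihood test). The median over the 20 factors was -0.36 in females and 0.15 in males, and -0.14 and -0.02 without both low libraries.

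The 7 complex I subunits encoded by mitochondrial DNA lay at a log2 median of -0.51 in females and 0.03 in males, and at -0.56 and 0.05 without both low libraries. By edgeR's test 0 passed in either sex, and 2 were lower at an unadjusted p under 0.05 in females and 0 in males (9.14% and 4.74% of all genes). DESeq2 passed 1 in females (10.8% of all genes) and 0 in males, and limma-voom 0 in both. The smallest female p was that of ND3, at a log2 value of -0.96 (SE 0.33 and 0.101 as the Benjamini-Hochberg adjusted p of edgeR's quasi-likelihood test). All mitochondrially encoded genes together took 4.40, 5.40, 4.75 and 4.57% of reads in female CRE- replicates 1 to 4 and 4.10, 4.39, 3.96 and 2.83% in female LKO replicates 1 to 4. Each female LKO mouse was below each female CRE- mouse in this share, replicate 2 narrowly, and replicate 4 was the lowest.

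The other complexes of the chain gave values near those of complex I. The median log2 fold change of the 43 genes of complexes II to V was -0.51 in females, with 42 below 0, and 0.29 in males, with 40 above 0. By the quasi-likelihood test of edgeR, adjusted after Benjamini-Hochberg, 0 of the 43 passed in either sex, and 10 had an unadjusted p under 0.05 in females, all lower, and 0 in males. In females 9.14% of all genes were lower at that p and 21.4% lower or higher, and in males 9.53% were lower or higher. With both low libraries left out the medians were -0.24 and 0.05. By complex, the female and male medians were -0.63 and 0.07 for complex II, -0.54 and 0.27 for complex III, -0.45 and 0.39 for complex IV, and -0.55 and 0.26 for complex V. The 75 mitochondrial ribosomal proteins had -0.36 and 0.27, and 13 enzymes of the TCA cycle -0.29 and 0.09. The 80 cytosolic ribosomal proteins, which are also short, had -0.03 in females and 0.64 in males. The 13 regulators of respiratory genes had 0.10 and -0.02, and Ppargc1a, a coactivator of mitochondrial biogenesis, lay at -0.92 in males (SE 0.33 and 0.333 as the Benjamini-Hochberg adjusted p of edgeR's quasi-likelihood test). Without both low libraries the male value of Ppargc1a was -0.67. The ribosomal, TCA cycle and regulator medians are given with all libraries only. With all libraries, 0 genes of these ribosomal lists, of the TCA cycle and of the regulators passed edgeR's test in either sex. At an unadjusted p under 0.05 there were 15 mitochondrial ribosomal genes in females and 1 in males, and 1 cytosolic ribosomal gene in females and 56 in males. There were 5 TCA cycle genes in females and 0 in males, and 1 regulator in females and 2 in males. Those in females were lower but for the regulator, and the ribosomal genes in males were higher, where 4.79% of all genes were higher in males at that p. With the length trend removed, 5 of the 43 genes of complexes II to V and 2 of the 75 mitochondrial ribosomal genes passed in females, where 6.71% of all genes did. In females DESeq2 passed 2 genes of complexes II to V, both of complex II, 3 mitochondrial ribosomal genes, 0 TCA cycle genes and 0 regulators, and limma-voom passed 2, 2, 2 and 1, where 10.8% and 11.8% of all genes passed. In males DESeq2 passed 1 cytosolic ribosomal gene (2.02% of all genes), and otherwise DESeq2 and limma-voom passed 0 in these lists, as they did for cytosolic ribosomal genes in females.

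Markers of macrophages, neutrophils and dividing cells lay higher in the female LKO livers, where complex I lay lower. All 6 hepatocyte markers had a female log2 fold change below 0, with a median of -0.37. The values ran from -0.89 for Ttr to -0.0073 for Fgb, and Apob, at -0.10, also lay near 0. By edgeR's test 0 passed, with 1 lower at an unadjusted p under 0.05 (9.14% of all genes), 1 passing by DESeq2 (10.8% of all genes) and 0 by limma-voom. Their summed level, with Alb the most abundant, was 120590.0, 112690.0, 117230.0 and 133630.0 CPM in female CRE- replicates 1 to 4 and 59624, 93108, 92327 and 73090.0 CPM in female LKO replicates 1 to 4. Each female LKO mouse was below each female CRE- mouse in this sum. Most of the sum was Alb, with a mean of 95605 CPM in female CRE- and 59095 CPM in female LKO mice. Of 7 macrophage markers 1, Adgre1, passed (4.24% of all genes did) and all 7 were higher at an unadjusted female p under 0.05 (12.3% of all genes), with a median log2 fold change of 1.38. Their summed level, with Cd5l the most abundant, was 779, 578, 638 and 1117 CPM in female CRE- replicates 1 to 4 and 3229.7, 1007, 2108 and 1211 CPM in female LKO replicates 1 to 4. Female LKO replicate 1, the lowest in complex I, was the highest in macrophage markers. Adgre1 had a female log2 fold change of 2.15 and no longer passed with 10 of the 16 mice left out in turn, with 1.21 without female LKO replicate 1. In males the sum was 968, 492, 281 and 1416 CPM in CRE- replicates 1 to 4 and 1072, 639, 713 and 604 CPM in LKO replicates 1 to 4, and male CRE- replicate 3, also low in complex I, was the lowest of the 16.

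Of 4 proliferation markers 3 passed in females, where 4.24% of all genes did, with a median log2 fold change of 2.08 and a sum, with Mki67 the most abundant, of 8.78, 6.72, 4.02 and 15.8 CPM in CRE- replicates 1 to 4 and 71.2, 12.8, 27.9 and 28.1 CPM in LKO replicates 1 to 4. LKO replicate 1 was again the highest, and 0 of the 4 passed edgeR's test without both low libraries. The female log2 fold changes were then 2.28 for Ccnb1, 1.65 for Cdk1 and 0.90 for Mki67, against 2.60, 1.72 and 1.69 with all libraries. With mice left out in turn, Top2a no longer passed in 9 of 16 cases, Ccnb1 in 4 and Cdk1 in 4, in each of them also without female LKO replicate 1. Of 4 neutrophil markers tested 1, Retnlg, passed in females, with a median of 3.02 and a sum, with S100a9 the most abundant, of 26.2, 14.4, 11.6 and 14.5 CPM in CRE- replicates 1 to 4 and 75.8, 30.5, 47.9 and 481 CPM in LKO replicates 1 to 4, the highest in LKO replicate 4. Retnlg no longer passed with any of the 4 female CRE- mice or female LKO replicates 1 or 4 left out, and Ly6g was too low to be tested. With both low libraries left out, 2 of 5 neutrophil markers passed, Retnlg and S100a9, where 2.13% of all genes did. The female medians were 0.10 for 7 T and NK cell markers, 0.59 for 6 B and plasma cell markers, 0.39 for 5 endothelial markers, -0.11 for 6 stellate cell markers, 0.24 for 5 cholangiocyte markers and 0.57 for 5 erythroid markers, with 0 passing edgeR's test in these 6 lists, and with 1, 1, 2, 0, 0 and 0 at an unadjusted p under 0.05, all higher (12.3% of all genes). DESeq2 passed 1 endothelial marker (10.8% of all genes), and limma-voom 1 T and NK cell and 1 stellate cell marker (11.8% of all genes). With both low libraries left out the female median of the macrophage markers was 0.92 and 0 of 7 passed edgeR's test, beside the complex I median of -0.18.

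In males, where complex I lay higher in LKO mice, markers of neutrophils and erythroid cells lay lower. Of 4 neutrophil markers tested 0 passed edgeR's test and 3 were lower at an unadjusted p under 0.05 (4.74% of all genes), with a median log2 fold change of -1.87. Their sum was 54.3, 14.1, 7.57 and 116 CPM in male CRE- replicates 1 to 4 and 17.8, 10.6, 7.95 and 7.67 CPM in male LKO replicates 1 to 4, with overlap through CRE- replicates 2 and 3. Of 5 erythroid markers 0 passed and 4 were lower at an unadjusted p under 0.05, with a median of -1.27. Their sum, with Hbb-bs the most abundant, was 768, 626, 558 and 1039 CPM in male CRE- replicates 1 to 4 and 196, 393, 306 and 492 CPM in male LKO replicates 1 to 4. Each male LKO mouse was below each male CRE- mouse in the erythroid sum. The erythroid median was -1.31 without both low libraries. The other male medians were -0.06 for hepatocyte, 0.01 for macrophage, -0.01 for T and NK cell, 0.08 for B and plasma cell, 0.24 for endothelial, -0.55 for stellate cell, 0.44 for cholangiocyte and 0.09 for proliferation markers, with 0 at an unadjusted p under 0.05. DESeq2 and limma-voom passed 0 markers of these lists in males. The summed level of the hepatocyte markers was 70490.0, 96511, 111150.0 and 97182 CPM in male CRE- replicates 1 to 4. In male LKO replicates 1 to 4 it was 65917, 76108, 93499 and 78011 CPM, with overlap of the groups. Alb, the most abundant, had a male log2 fold change of -0.33, and 4 of the 6 hepatocyte markers were below 0 in males. The part of these cells in the complex I values was not tested.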

How the data were processed

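The authors aligned reads to GRCm39 with STAR (version 2.7.1a) and counted them per gene by strand with featureCounts of Subread (version 2.0.6), per the labels and the study's methods. The deposited counts are reads per gene without normalization, beside a gene length in bases. As 67.7% of counts above 0 are even, both reads of a fragment were taken to be counted, and counts may then overstate independent fragments. This was inferred from the counts and the counting options and was not checked further.

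Counts were filtered with filterByExpr of edgeR 4.0.16 (minimum count 10), scaled by TMM and fitted jointly over 4 groups with edgeR's quasi-likelihood test and Benjamini-Hochberg adjustment in R 4.3.3. CPM, log2 CPM (prior count 2) and RPKM were computed from the counts. At least 10 reads in every library were held by 13000 of 16742 genes tested and 39 of 44 complex I genes. Each replicate is a mouse. Alternatives were DESeq2 1.42.0, limma-voom with quality weights (limma 3.58.1), RLE and upper-quartile scaling, other filters, a prior count of 0.5, each sex fitted alone, a replicate block, removal of each library's trend with length, and leaving out each mouse. Named genes are the 7 catalytic core subunits, those with the 5 smallest female, 3 smallest male and 3 smallest interaction p-values, and the highest and lowest RPKM. From other lists, the genes with the 2 smallest p-values in each sex could be named. Genes outside this rule, such as Top2a, Ndufs6, Ndufa8, Ndufa11 and those that passed under an alternative alone, were named after their values were seen. The members and lists were chosen with earlier results of these data known. The steps were tested on simulated data. The changes planted there were larger than those of the complex I subunits, so recovery of changes of their size was not tested.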

Additional observations from a re-analysis of the deposited data

Results flagged for a closer look

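Within groups of 4 mice, a mouse far from the other 3 was looked for in each named gene, in Gcgr and in 5 summaries of the libraries. Chance gives about 1 in 20 groups such a mouse, and 3 of the 84 groups examined had one. The share of reads on genes under 1000 bases was 4.79% in female LKO replicate 1, below the other female LKO mice. The share of reads on complex I genes was 0.305% in female CRE- replicate 1, below the other female controls. Gcgr was at 127.3 CPM in male CRE- replicate 3, below the other male controls and within the range of male LKO mice.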

How the results depend on the processing

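The count of complex I genes past the threshold in females was 0 by edgeR with all libraries, 6 with the length trend removed, 3 by DESeq2 and 2 with a replicate block (Ndufb8 and Ndufs6b, adjusted p 0.0360 and 0.0452), and ran from 0 to 3 over leaving out each mouse; the cause was not tested. In males, for the interaction and between the CRE- groups this count was 0 in each setting run. Over leaving out each mouse, the median log2 value ran from -0.64 to -0.18 in females, 0.09 to 0.40 in males, -0.93 to -0.52 for the interaction and 0.29 to 0.61 between CRE- groups, and the LKO minus CRE- difference in mean log2 CPM from -0.74 to -0.22 in females and 0.09 to 0.44 in males. Some male log2 fold changes near 0, none of which passed, changed sign, and the cause was not tested. With the length trend removed they were -0.20 for Ndufs3, -0.044 for Ndufs8, -0.0034 for Ndufa13 and -0.068 for Ndufb8. Without both low libraries they were -0.051 for Ndufs3, -0.022 for Ndufs8 and -0.14 for Ndufb8, and with the trend also removed -0.13, -0.094 and -0.15. For Ndufb8 the value was -0.000181 with RLE scaling, -0.000188 by DESeq2 and -0.00858 with each sex fitted alone. Over leaving out each mouse, the male value ran from -0.031 to 0.18 for Ndufs1, -0.055 to 0.21 for Ndufs3, -0.027 to 0.32 for Ndufs8 and -0.14 to 0.14 for Ndufb8, and the female value of Ndufb4c from -0.11 to 0.97. The other values of single genes kept their direction and side of the threshold in 1192 cases, passed where they had not in 10 and no longer passed in 17. Neither the labels nor the study's methods say that equal replicate numbers mark mice that share anything. Over 24 pairs of libraries with equal number, r across genes of their deviations from the group means ran from -0.25 to 0.33 (median 0.0925, 11 over 0.1), the median over other pairs was -0.0204, and 10 of 16 libraries correlated best with their own number, a hint from the data and not from the design. Between LKO and CRE- mice of equal number r was over 0.1 in 3 of 4 pairs in females, with 0.0281 in the other, and in 3 of 4 in males, with -0.0130 in the other, so the mice were not taken as pairs. With the block, 7.43% of all genes (1244) passed in females against 4.24% (710) without it (87 without female CRE- replicate 2, 119 with each sex fitted alone and 1310.0 without female LKO replicate 2), beside 2 of 44 complex I genes, and 27 complex I genes had an unadjusted interaction p under 0.05, all lower, against 10 without it, where 9.39% of all genes were lower at that p against 6.68% without it. Genes with few reads, such as Ndufs6b and Ndufb4c, are limited by depth.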
